A study of Mus musculus with 12 samples.

Results

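The genes described here drive cell division: they license and copy the DNA, supply its nucleotides, switch the cell into mitosis and pull the chromosomes apart. A list of 38 such genes was taken, and each was read from the probe set (the group of short probes for a transcript) with the highest mean over all 12 arrays, with no filter on low signals. Of the 38, 37 were measured among 18193 genes; cyclin B1 (Ccnb1) had no probe set assigned to it alone and was not analysed here. RNA from adipose tissue of C57Bl/6 mice was read on Affymetrix arrays that each carried 1 labelled sample, with 4 arrays in each of 3 groups. Chow mice were kept on standard chow, with 13% of calories from fat. The other groups ate chow to 6 weeks of age and then a high-fat diet (HFD), with 46% of calories from fat, for 5 or 14 days. The labels name neither the fat depot, nor whether an array is 1 animal or a pool, nor how old the chow mice were when tissue was taken, so age and diet cannot be told apart. P-values therefore measure the spread between these samples, part of which may be technical.

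As background, a resting cell enters the cycle when D-type cyclins and their kinases inactivate the retinoblastoma proteins, which frees E2F factors to switch on replication genes. The MCM helicase is then loaded at origins by Cdc6 and Cdt1, and later B-type cyclins with the kinase Cdk1 start mitosis, which ends when the anaphase-promoting complex marks the cyclins for destruction. Mature adipocytes do not divide, while progenitors, endothelial cells and immune cells of fat can, and visceral fat of mice is known to form new adipocytes early on a high-fat diet. In whole tissue, fewer cells of a type and less RNA per cell cannot be told apart.

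The members were classed by role, and 5 promoters are shown to set the letters upstream of starts in both classes side by side. Each is the stretch of 250 bases before the start, 5′ to 3′, from RefSeq with the GRCm38.p6 build; Ccnb2 is at chr9:70421555-70421804 and Cdk1 at chr10:69352913-69353162, both on the minus strand, Ube2c at chr2:164769679-164769928 and Cks2 at chr13:51644982-51645231, both on the plus strand, and Mcm6 at chr1:128359706-128359955 on the minus strand. Capitals mark matches, on either strand, to the CHR motif (TTTGAA or TTTAAA), the CCAAT box (CCAAT) and the E2F motif (TTTCCCGC, TTTGGCGC or TTTCGCGC), which may overlap.
Ccnb2: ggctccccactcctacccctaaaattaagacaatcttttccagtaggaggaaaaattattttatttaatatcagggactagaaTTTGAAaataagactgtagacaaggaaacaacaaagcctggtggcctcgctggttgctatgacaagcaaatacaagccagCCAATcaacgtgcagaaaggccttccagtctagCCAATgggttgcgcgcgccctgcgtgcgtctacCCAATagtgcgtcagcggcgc
Cdk1: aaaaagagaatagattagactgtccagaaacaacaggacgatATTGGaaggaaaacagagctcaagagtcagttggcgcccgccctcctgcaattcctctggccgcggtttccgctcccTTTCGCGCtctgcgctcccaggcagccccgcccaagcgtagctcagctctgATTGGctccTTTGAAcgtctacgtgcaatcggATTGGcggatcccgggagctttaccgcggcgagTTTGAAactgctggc
Ube2c: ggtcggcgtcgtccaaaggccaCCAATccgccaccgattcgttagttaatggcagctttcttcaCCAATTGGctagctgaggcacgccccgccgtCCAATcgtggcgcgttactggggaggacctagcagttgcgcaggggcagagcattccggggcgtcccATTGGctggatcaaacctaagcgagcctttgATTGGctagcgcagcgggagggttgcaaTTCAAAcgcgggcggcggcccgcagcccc
Cks2: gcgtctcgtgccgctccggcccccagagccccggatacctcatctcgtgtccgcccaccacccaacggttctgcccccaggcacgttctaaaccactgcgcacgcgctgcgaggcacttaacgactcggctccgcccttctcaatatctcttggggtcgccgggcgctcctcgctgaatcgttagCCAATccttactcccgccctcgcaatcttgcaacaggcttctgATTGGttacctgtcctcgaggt
Mcm6: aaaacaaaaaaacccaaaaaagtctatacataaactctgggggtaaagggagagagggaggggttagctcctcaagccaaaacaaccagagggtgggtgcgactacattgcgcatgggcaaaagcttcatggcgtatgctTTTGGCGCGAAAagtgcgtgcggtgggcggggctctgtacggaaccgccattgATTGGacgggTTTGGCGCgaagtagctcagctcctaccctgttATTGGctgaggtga
Windows that run from 250 bases before to 50 after the start were found for 31 of the 37 measured members. Of 20 windows of the cyclin, kinase, mitosis and chromosome members, 17 (85%) held a CHR match and 17 (85%) a CCAAT box, with 15 (75%) holding both and 1 (5%) an E2F match. Among 13 windows of replication and nucleotide supply members, 4 (30.8%) held a CHR match, 9 (69.2%) a CCAAT box, 3 (23.1%) both and 6 (46.2%) an E2F match. Over all 32851 windows the shares were 27.6%, 37.4%, 10.7% for both and 1.84% for E2F. Of the 20, the windows of Cks2, Bub1 and Nusap1 held no CHR match. These matches describe letters only and were not tested.

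Signals are in log2 units as deposited, so a difference of 1.09 is a 2.13-fold ratio. Values over all arrays ran from 4.18 to 15.50, and array medians from 8.09 to 8.14. The adipocyte markers (7 of 8 measured) averaged 14.11 to 14.46 in every array. Transcripts of other tissues differed between arrays of 1 group: epididymis markers (7 of 10 measured) averaged 6.94 to 7.60 in chow and 6.87 to 7.30 in 5-day array 4 and 14-day arrays 1 to 3, but 9.77, 9.84 and 10.20 in 5-day arrays 1 to 3 and 10.91 in 14-day array 4. No gene at all passed limma at an adjusted p under 0.05 in any comparison. The members are therefore described by their values and by counts at an unadjusted p under 0.05. The share of all genes at such a p is given for each comparison.

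After 5 days of HFD 22 of the 23 cyclin, kinase, mitosis and chromosome members stood above chow in mean, all but cyclin D1 (Ccnd1), as did 7 of the 14 replication and nucleotide supply members, among them Rrm1 and Rrm2. The class of 23, called the cyclin and mitosis members below, includes cyclins of G1 and S phase (Ccnd1, Ccne1, Ccne2 and Ccna2). Of the 37 measured members, 29 were higher in mean and 8 lower, with a median log2 difference of 0.18, against a median of −0.002 and 49.2% higher over all genes. Unadjusted p was under 0.05 for 15 higher members, where 4.24% of all genes were so, and for 1 lower member, Mcm4, where 5.39% were. In 9 members (Rrm2, Ccnb2, Cdk1, Cks2, Aurka, Ube2c, Cdca3, Prc1 and Nusap1) all 5-day arrays lay above all chow arrays, against 5.34% of genes, and in 0 members below, against 4.08%. By limma 0 of the 37 members passed an adjusted p under 0.05 (lowest 0.255), as did 0 of 18193 genes (0%; lowest 0.218), of which 1752 (9.63%) had unadjusted p under 0.05. The calls depended on how arrays were weighed: 1845 genes and 13 members passed with array weights estimated from the data, 1000 and 6 without both HFD arrays numbered 4, and 315 and 5 with the mean of the epididymis markers as a covariate. Leaving out 14-day array 4 alone, which alters only the shared estimate of spread, gave 90 genes and 2 members.

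**Figure D1:**
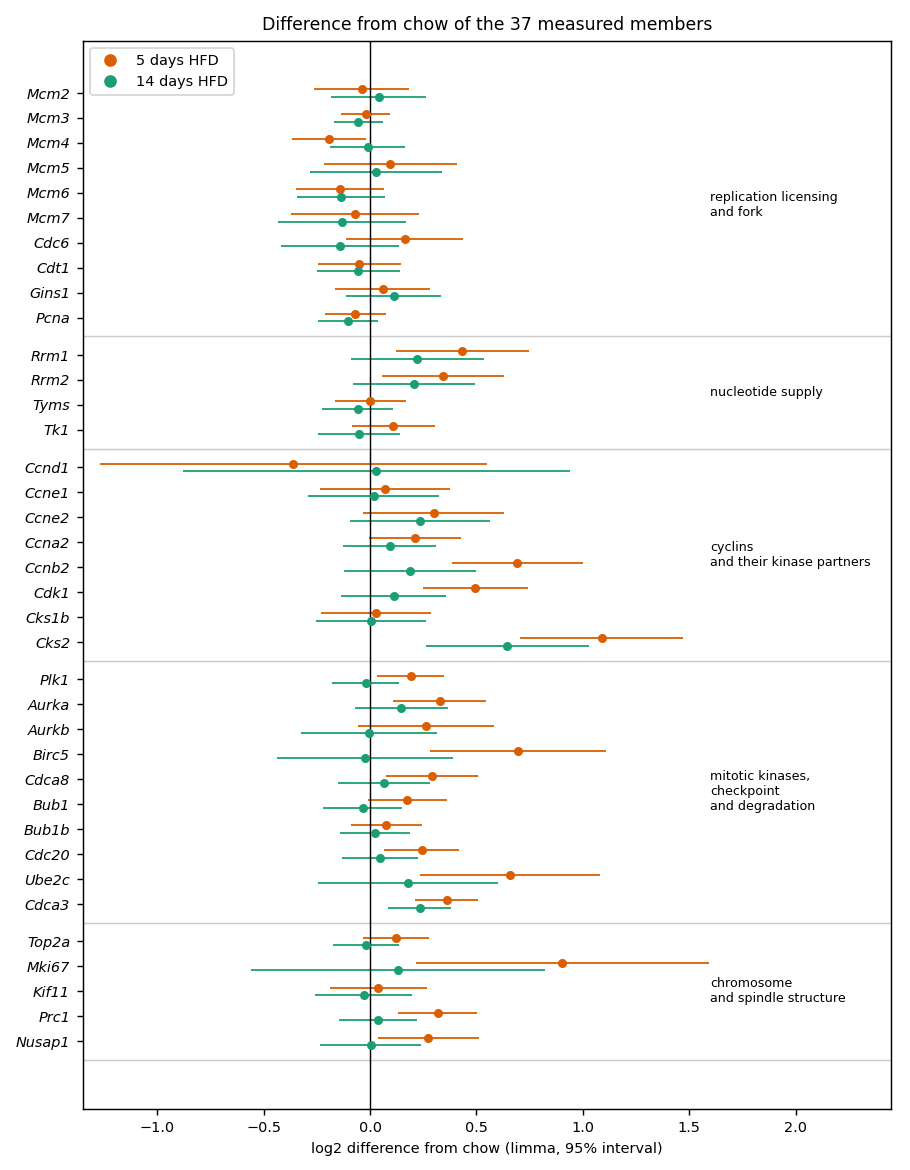
Log2 difference from chow of each of the 37 measured members, grouped by role, after 5 days (orange) and 14 days (green) of HFD, with the 95% interval from limma. Points at 5 days lie right of 0 for 22 of the 23 cyclin, kinase, mitosis and chromosome members, and for 3 of the 10 licensing and fork members.

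Licensing and fork members showed no common shift at 5 days: 3 of 10 were higher and 7 lower, with a median of −0.05 and differences from −0.19 to 0.16. Pcna, the sliding clamp that holds DNA polymerase on its template, stood at 11.93, 11.97, 11.88 and 11.86 in chow, 11.94, 11.84, 11.77 and 11.81 after 5 days and 11.82, 11.80, 11.93 and 11.66 after 14 days. Its groups overlapped, and the 5-day difference was −0.07 (95% interval −0.21 to 0.07; limma adjusted p = 0.795). The MCM helicase, of 6 subunits, unwinds the DNA ahead of the fork. On their brightest probe sets Mcm2, Mcm3, Mcm6 and Mcm7 differed by −0.04, −0.02, −0.14 and −0.07 and Mcm5 by 0.09. Another Mcm2 probe set was higher and is described with the other probe sets. Mcm4, taken up after its values were seen, stood at 9.23, 9.55, 9.18 and 9.44 in chow and at 9.15, 9.07, 9.22 and 9.18 after 5 days, and the groups overlapped. The difference was −0.19 ± 0.08 (SE; limma adjusted p = 0.481), and after 14 days the arrays stood at 9.36, 9.29, 9.34 and 9.37, all above those of 5 days. The loading factors Cdc6 and Cdt1 differed by 0.16 and −0.05, and Gins1, part of the active helicase, by 0.06. None of these had unadjusted p under 0.05 except Mcm4.

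Among the 4 nucleotide supply members, both subunits of ribonucleotide reductase, which makes deoxynucleotides, stood higher at 5 days. Thymidine kinase 1 (Tk1) and thymidylate synthase (Tyms) differed by 0.11 and 0.00, but Tyms was read at a low signal, with a mean of 6.26 over all arrays. Rrm1, the large subunit, stood at 9.30, 9.51, 9.38 and 9.40 in chow, 9.996, 9.858, 9.987 and 9.485 after 5 days, and 9.41, 9.49, 9.56 and 10.02 after 14 days. The 4 arrays near 10 are the same 4 in which epididymis markers were high, and 5-day array 4, without them, lay within the chow range. The Rrm1 difference at 5 days was 0.43 ± 0.14 (SE; limma adjusted p = 0.411), and 0.16 with the mean of the epididymis markers as a covariate. Rrm2, the regulated small subunit, stood at 7.46, 7.57, 7.28 and 7.26 in chow, 7.76, 7.77, 7.78 and 7.65 after 5 days and 7.33, 7.46, 7.59 and 8.02 after 14 days. All 5-day arrays were above chow, by 0.34 ± 0.13 (adjusted p = 0.46), or by 0.15 with that covariate. The part of epididymis RNA in these values was not tested further.

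The cyclins and their kinase partners held the member with the largest difference. Cks2, a small protein that binds cyclin-dependent kinases and helps them reach their substrates (chromosome 13, 51645232 to 51650662), stood at 7.94, 8.02, 7.86 and 8.13 in chow, 9.31, 8.99, 8.74 and 9.27 after 5 days and 8.58, 8.18, 8.73 and 9.05 after 14 days. On this probe set, its brightest, every HFD array lay above every chow array. The group means were 7.99 ± 0.12, 9.08 ± 0.27 and 8.64 ± 0.36 (SD, n = 4), and the 5-day difference was 1.09 ± 0.17 (SE; 95% interval 0.71 to 1.47; limma adjusted p = 0.255). Its paralog Cks1b differed by 0.03 (interval −0.23 to 0.29).

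Ccnb2, cyclin B2 (chromosome 9, 70407689 to 70421554), stood at 7.42, 7.25, 7.39 and 7.21 in chow, 8.12, 8.02, 7.64 and 8.26 after 5 days and 7.19, 7.47, 7.61 and 7.75 after 14 days. The 5-day arrays were all above chow, with a difference of 0.69 ± 0.14 (1.62-fold; limma adjusted p = 0.321). The kinase Cdk1, the partner of B-type cyclins (chromosome 10, 69335146 to 69352912), stood at 8.38, 8.22, 8.37 and 8.28 in chow, at 8.79, 8.94, 8.55 and 8.96 after 5 days and at 8.35, 8.40, 8.72 and 8.23 after 14 days. Here too the 5-day arrays did not overlap chow, with a difference of 0.50 ± 0.11 (1.41-fold; adjusted p = 0.342). Cyclin A2 (Ccna2) and the E cyclins Ccne1 and Ccne2, which act in S phase and at its onset, differed by 0.21, 0.07 and 0.30 on their brightest probe sets, none with unadjusted p under 0.05; another probe set of Ccna2 had such a p and is described with the other probe sets.

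Cyclin D1 (Ccnd1), which answers growth signals before the cell commits to division, went the other way in mean. It stood at 10.38, 11.38, 11.05 and 11.40 in chow, 10.93, 10.61, 10.88 and 10.36 after 5 days and 10.46, 11.43, 10.12 and 12.32 after 14 days. The spread within a group, up to an SD of 0.99 at 14 days, exceeded the 5-day difference of −0.36 ± 0.41 (SE; 95% interval −1.27 to 0.55; limma adjusted p = 0.837).

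**Figure D2:**
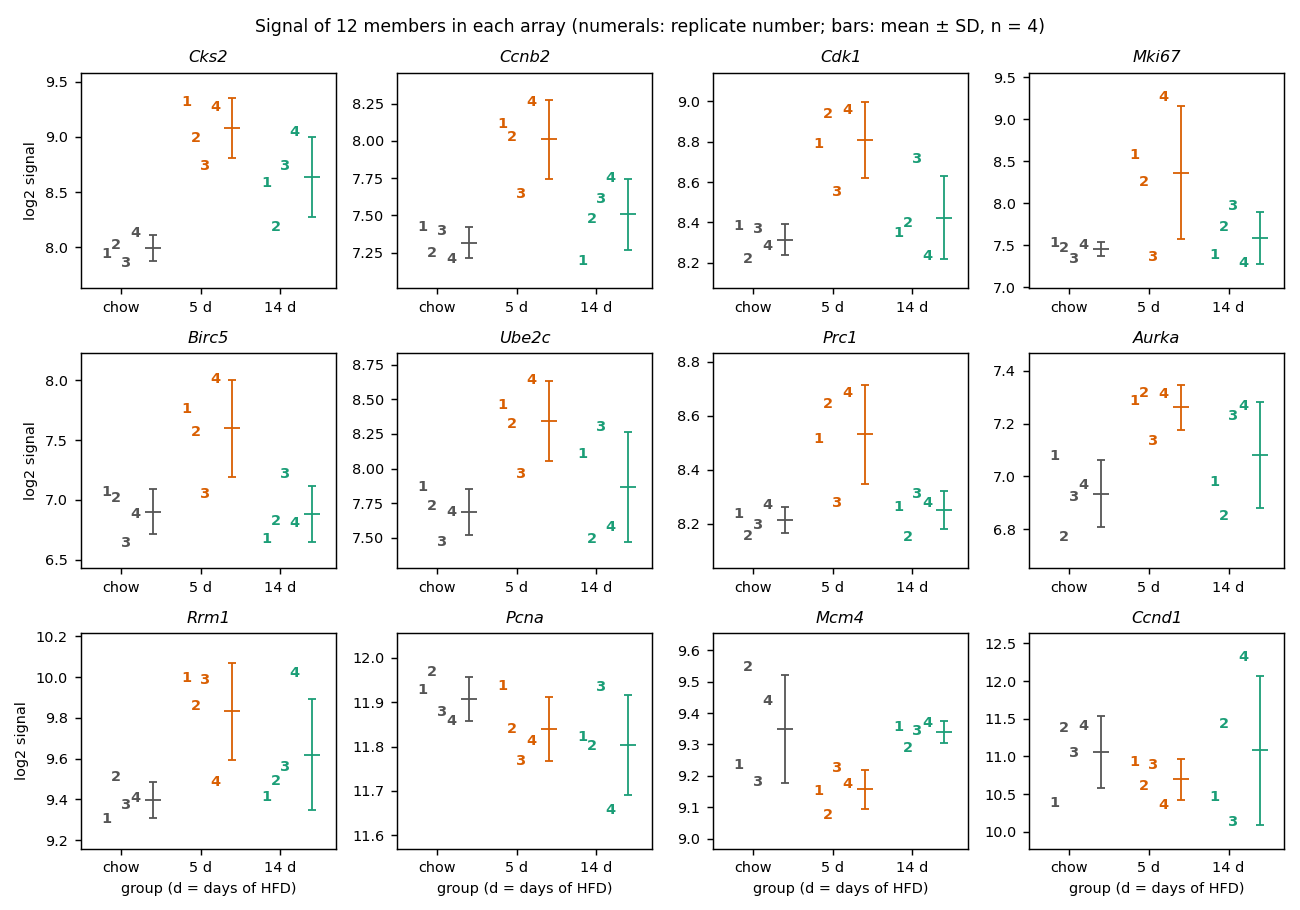
Log2 signal of 12 members in each array, by group, with replicate numbers as symbols and mean ± SD (n = 4) beside them; each panel has its own axis, which does not start at 0. In Cks2 every HFD array lies above every chow array. The lowest 5-day array is array 3 in Cks2, Ccnb2, Cdk1, Mki67, Birc5, Ube2c, Prc1 and Aurka, and also in Pcna.

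All 10 mitotic kinase, checkpoint and degradation members were higher in mean at 5 days, and the median difference was 0.28. Unadjusted p was under 0.05 for 7 of them, where 4.24% of all genes were higher with such a p. Cdca3, a partner of the ubiquitin machinery that triggers mitotic entry, stood at 7.76, 7.59, 7.72 and 7.61 in chow, 7.98, 8.15, 8.03 and 7.96 after 5 days and 7.94, 7.84, 8.01 and 7.82 after 14 days. Like Cks2 it had every HFD array above every chow array, and it differed by 0.36 ± 0.07 at 5 days (SE; limma adjusted p = 0.321). Ube2c, the ubiquitin-conjugating enzyme of the anaphase-promoting complex, stood at 7.87, 7.73, 7.47 and 7.69 in chow, 8.46, 8.32, 7.96 and 8.64 after 5 days and 8.11, 7.49, 8.30 and 7.58 after 14 days. Its 5-day arrays lay above chow by 0.66 ± 0.19 (1.58-fold; adjusted p = 0.391), while of the 14-day arrays 1 and 3 lay above chow and 2 and 4 within it. Cdc20, the activator of that complex, stood at 8.03, 8.02, 8.10 and 8.18 in chow, 8.39, 8.44, 8.11 and 8.37 after 5 days and 8.06, 8.14, 8.05 and 8.26 after 14 days. Only 5-day array 3 reached the chow range, and the difference was 0.24 ± 0.08 (adjusted p = 0.413).

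Birc5, or survivin, a subunit of the chromosomal passenger complex that corrects faulty spindle attachments (chromosome 11, 117849237 to 117855743), stood at 7.07, 7.02, 6.64 and 6.88 in chow, 7.76, 7.57, 7.05 and 8.01 after 5 days and 6.67, 6.82, 7.22 and 6.81 after 14 days. The highest chow array was just above 5-day array 3, and the difference was 0.70 ± 0.19 (SE; 1.62-fold; limma adjusted p = 0.391). Cdca8, or borealin, of the same complex stood at 7.83, 7.76, 7.84 and 7.60 in chow, 8.09, 8.15, 7.84 and 8.12 after 5 days and 7.83, 7.79, 8.04 and 7.63 after 14 days. It differed by 0.29 ± 0.10 at 5 days (adjusted p = 0.42), with array 3 again at the chow level, and Aurkb, the kinase of the complex, by 0.26 ± 0.15 (adjusted p = 0.597). Among the other kinases, Aurka, which matures the spindle poles, stood at 7.08, 6.77, 6.92 and 6.97 in chow, 7.28, 7.32, 7.13 and 7.31 after 5 days and 6.98, 6.85, 7.23 and 7.27 after 14 days. Its 5-day arrays did not overlap chow (0.33 ± 0.10; adjusted p = 0.392).

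Plk1, which acts from mitotic entry to cell separation, stood at 7.90, 7.80, 7.62 and 7.82 in chow, 8.05, 7.97, 7.86 and 8.04 after 5 days and 7.81, 7.84, 7.74 and 7.68 after 14 days. The 5-day arrays lay above all 14-day arrays, and above chow except for array 3 against the highest chow array (0.19 ± 0.07, SE; limma adjusted p = 0.454). Bub1, a kinase of the spindle checkpoint, stood at 5.43, 5.34, 5.20 and 5.30 in chow, 5.48, 5.72, 5.36 and 5.41 after 5 days and 5.26, 5.45, 5.26 and 5.16 after 14 days. Its groups overlapped, with a 5-day difference of 0.18 ± 0.08 (adjusted p = 0.546), and Bub1b of the same checkpoint differed by 0.08.

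The 5 chromosome and spindle members were all higher in mean at 5 days, 3 with unadjusted p under 0.05. Over all genes 4.24% were higher with such a p. Mki67, the proliferation antigen that coats mitotic chromosomes (chromosome 7, 135689784 to 135716450), stood at 7.52, 7.47, 7.33 and 7.50 in chow, 8.58, 8.26, 7.36 and 9.26 after 5 days and 7.38, 7.72, 7.97 and 7.29 after 14 days. 3 of the 5-day arrays stood far above chow and array 3 lay within it. The means were 7.46 ± 0.09, 8.36 ± 0.79 and 7.59 ± 0.31 (SD, n = 4), and the 5-day difference was 0.90 ± 0.31 (SE; 1.87-fold; limma adjusted p = 0.424), 0.61 without array 4 and 1.24 without array 3. Prc1, which bundles microtubules at the spindle midzone, stood at 8.24, 8.15, 8.19 and 8.27 in chow, 8.52, 8.64, 8.28 and 8.69 after 5 days and 8.26, 8.15, 8.31 and 8.28 after 14 days. Its 5-day arrays did not overlap chow, array 3 by a narrow margin (0.32 ± 0.08; adjusted p = 0.391).

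Nusap1, a microtubule-binding spindle protein, stood at 7.60, 7.38, 7.35 and 7.38 in chow, 7.64, 7.84, 7.62 and 7.70 after 5 days and 7.58, 7.44, 7.61 and 7.10 after 14 days. The 5-day arrays were above all others, by 0.27 ± 0.11 from chow (SE; limma adjusted p = 0.469). Top2a, the topoisomerase that untangles sister chromatids, stood on its brightest probe set at 8.02, 7.92, 8.01 and 8.05 in chow, 8.02, 8.13, 8.05 and 8.30 after 5 days and 8.09, 7.94, 8.01 and 7.90 after 14 days. These groups overlapped (0.12 ± 0.07; adjusted p = 0.614), and the spindle motor gene Kif11 differed by 0.04 on its own brightest probe set.

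Both classes were then set side by side. The 23 cyclin, kinase, mitosis and chromosome members had 22 higher at 5 days, 13 of them with unadjusted p under 0.05 and 8 with arrays apart from chow. Over all genes 4.24% were higher with such a p and 5.34% had arrays apart from chow in that direction. The 14 replication and nucleotide supply members had 7 higher and 7 lower. Unadjusted p was under 0.05 for 2 of the higher and 1 of the lower, where 4.24% and 5.39% of all genes were so. Their median was −0.01, against 0.27 for the 23. The difference between these medians was not tested. Signal level was set beside these counts: of the 26 members above the 40th percentile of probe set means (7.64), 18 were higher at 5 days and 10 had unadjusted p under 0.05, against 11 and 5 of the 11 members below it. The 11 below it were Cdc6, Rrm2, Tyms, Ccne2, Ccnb2, Aurka, Aurkb, Birc5, Bub1, Kif11 and Nusap1. In a fit of only the genes above that level, 4.43% were higher with such a p, and over all genes 4.24%. The share among only the genes below that level was not counted, so the 2 levels cannot be compared by these counts.

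Arrays of the 5-day group differed in how far the cyclin and mitosis members stood above chow. The mean shift of the 23 from their chow means was 0.38, 0.37, 0.12 and 0.43 in 5-day arrays 1 to 4, and from −0.07 to 0.08 in the chow arrays. Array 3 was the lowest of its group in 17 of the 23, where it was lowest for 21.6% of all genes, and arrays 4 and 2 were highest in 10 and 9, where they were highest for 39.8% and 22.3% of all genes. The 14 replication and nucleotide members shifted by 0.07, 0.03, 0.02 and 0.06 in the same arrays. In 14-day arrays the mean shift of the 23 was 0.04, 0.05, 0.22 and 0.04. Array 3 was the highest of that group in 15 of the 23, where it was highest for 26.9% of all genes, and array 4 the lowest in 15, where it was lowest for 45.4%.

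**Figure D3:**
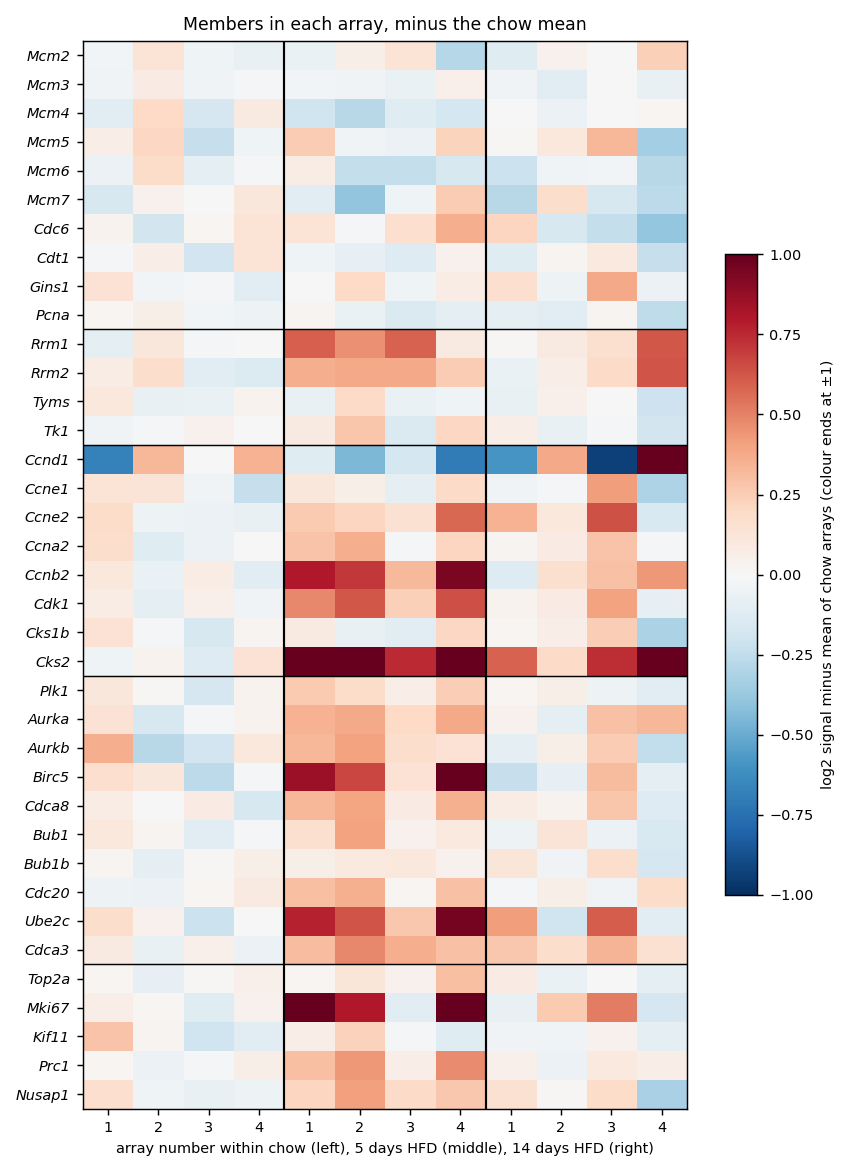
Log2 signal of each member in each array minus its mean over the chow arrays, with members in rows by role and arrays in columns by group; the colour scale ends at 1 in both directions. Orange to red tones gather in the cyclin and mitosis rows of 5-day arrays 1, 2 and 4 and are pale in 5-day array 3, whose mean shift was 0.12.

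Markers of the tissues and cells that vary between arrays were set beside that pattern. Epididymis markers were highest of the 5-day arrays in array 3 (10.20), where the mean shift of the 23 was smallest (0.12). They were at the chow level in array 4 (6.87), where the mean shift was largest (0.43). Arrays 1 and 2, with epididymis means of 9.77 and 9.84, had mean shifts of 0.38 and 0.37. The higher epididymis mean of array 3 than of arrays 1 and 2 came mostly from Lcn5, at 8.44, 9.13 and 11.05 in arrays 1 to 3. Spink8, Adam7 and Defb2 differed little between these arrays (Spink8 at 14.276, 14.335 and 14.451), and Lcn8, Lcn9 and Rnase10 stayed near their chow values. The median shift of the 23 was 0.30, 0.39, 0.08 and 0.29 in arrays 1 to 4, so array 4 was not the highest by that measure. Testis germ cell markers (8 of 8 measured) averaged 7.91, 7.87, 8.36 and 7.13 in 5-day arrays 1 to 4 and 7.17 to 7.29 in chow, again with array 3 highest and array 4 lowest. That mean followed the sperm genes Prm1, Prm2, Tnp1 and Tnp2, each above the chow range in 5-day arrays 1 to 3 and within or below it in array 4, and 3 of the 8 markers (Dazl, Sycp3 and Stra8) were lower in mean at 5 days. Sycp3, of the meiotic chromosome axis, ran the other way, at 9.61, 9.43, 9.29 and 10.21 in 5-day arrays 1 to 4 against 9.63 to 9.92 in chow. With the epididymis mean as a covariate 18 members had unadjusted p under 0.05 at 5 days in the higher direction, where 12.6% of all genes did, against 15 members and 4.24% of genes without it.

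Endothelial markers (6 of 6) averaged 10.45, 10.29, 10.25 and 11.12 in 5-day arrays and 10.20 to 10.56 in chow, so array 4 stood apart there too. The same array had the largest excess of 3′ over 5′ signal for pyruvate carboxylase, a control for RNA integrity, at 2.83 against 1.70 to 1.91 in chow. Without array 4, 14 members had unadjusted p under 0.05 in the higher direction, where 5.05% of all genes did. Macrophage markers (8 of 8) averaged 11.62 to 11.88 in chow and 11.44 to 11.76 at 5 days, lymphocyte markers (6 of 8) 7.53 to 7.62 and 7.29 to 7.53, and erythroid markers (3 of 5) 8.10 to 8.70 and 8.01 to 8.40. Progenitor and fibroblast markers (7 of 8) averaged 12.03 to 12.17 in chow and 11.77 to 12.16 at 5 days, and mesothelium markers (7 of 7) 10.51 to 10.80 and 9.77 to 10.28. None of these 5 lists stood higher at 5 days. Liver, skeletal muscle and smooth muscle markers varied within the chow and 5-day groups. Liver ran from 7.85 to 12.40 in chow and 9.47 to 13.63 at 5 days, and smooth muscle from 10.17 to 10.85 and 10.09 to 12.10. Skeletal muscle ran from 7.92 to 12.89 and 8.34 to 12.54, with chow array 3 and 5-day array 2 the highest, but at 14 days only from 7.94 to 8.50. The part of these tissues in the members' values was not tested, beyond a fit with the skeletal muscle mean as a covariate, in which 15 members, and 4.04% of all genes, were higher with unadjusted p under 0.05.

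**Figure D4:**
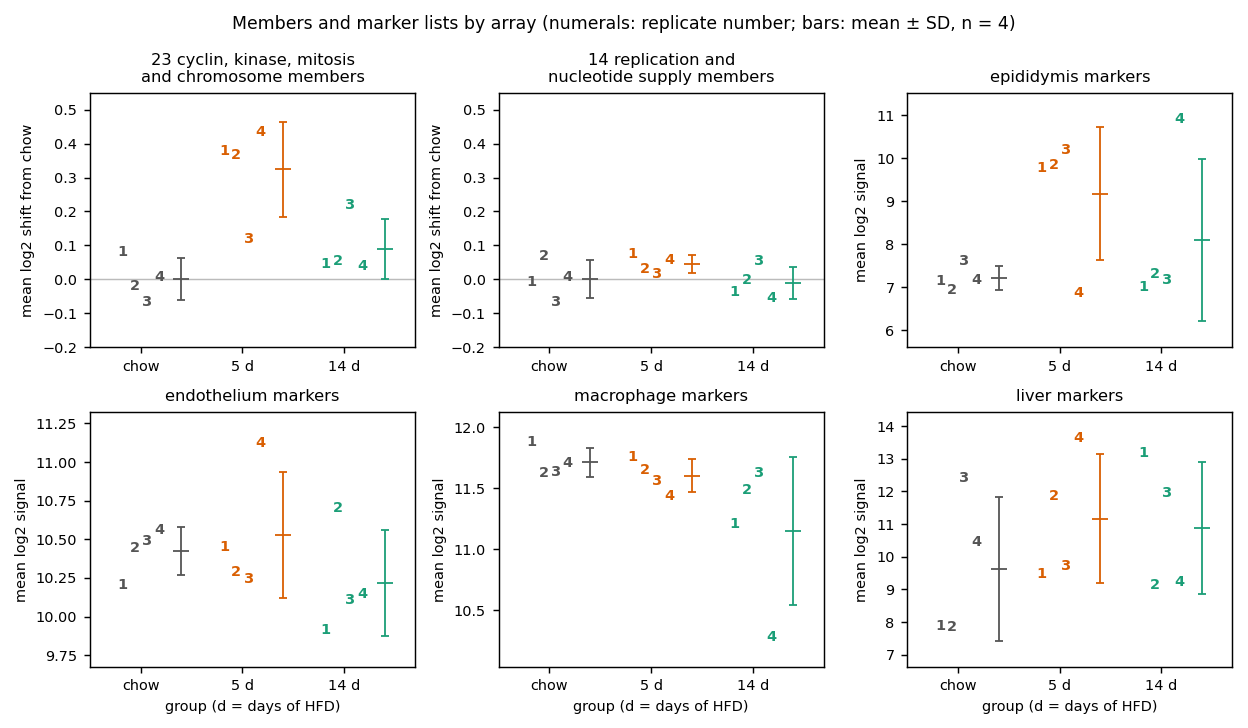
Mean shift from chow of the 23 cyclin and mitosis members and the 14 replication and nucleotide members, and mean log2 signal of epididymis, endothelium, macrophage and liver markers, in each array; numerals are replicate numbers and bars give mean ± SD (n = 4). 5-day array 3 is lowest of its group for the cyclin and mitosis members (0.12) and highest for the epididymis markers (10.20).

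After 14 days of HFD most members stood close to their chow values. Of the 37, 22 were higher and 15 lower, with a median of 0.02 against 0.01 and 53.8% higher over all genes. Cks2 and Cdca3 had unadjusted p under 0.05 and lay above chow in all arrays, where 3.02% of genes had such a p in the higher direction and 2% such arrays; 0 members were lower with such a p or with all arrays below chow, where 3.96% and 2.01% of genes were. Cks2 differed by 0.65 ± 0.17 (SE; 95% interval 0.26 to 1.03; limma adjusted p = 0.604) and Cdca3 by 0.23 ± 0.07 (interval 0.09 to 0.38; adjusted p = 0.626). Every other member differed by at most 0.23 in size on its brightest probe set. Mki67 differed by 0.13 (interval −0.56 to 0.82), Ccnb2 by 0.19 (−0.12 to 0.50) and Birc5 by −0.02 (−0.44 to 0.39). These intervals still hold sizeable differences. Another probe set of Cdt1 was lower by more and is described with the other probe sets. Of the 14 replication and nucleotide members 5 were higher and 9 lower, with a median of −0.05. Limma called 0 members and 0 of 18193 genes (0%; lowest adjusted p 0.412), and 1271 genes (6.99%) had unadjusted p under 0.05. With array weights 1843 genes and 3 members passed. Markers of several cell types were lower in mean than in chow at 14 days: macrophage markers in 8 of 8 (median −0.56, 5 with unadjusted p under 0.05), progenitor and fibroblast markers in 7 of 7 (−0.50, 4 with such a p), endothelial markers in 6 of 6 (−0.23, 0) and mesothelium markers in 6 of 7 (−0.68, 5). Erythroid markers were lower in 3 of 3 (−0.24, 1), lymphocyte markers in 5 of 6 (−0.06, 0) and adipocyte markers in 4 of 7 (−0.03, 0). The macrophage mean was 10.28 in 14-day array 4 and 11.21 to 11.62 in arrays 1 to 3. The part of these cells in the members' values was not tested.

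Between 14 and 5 days of HFD, which shares the 5-day arrays with the first comparison, 32 of the 37 members were lower at 14 days and 5 higher, with a median of −0.14 against 0.009 over all genes. Unadjusted p was under 0.05 for 13 lower members, where 0.846% of genes were so, and for 1 higher member, Mcm4, where 1.59% were. Birc5 differed by −0.72 ± 0.19, Ccnb2 by −0.50 ± 0.14, Cdk1 by −0.39 ± 0.11, Prc1 by −0.28 ± 0.08, Mki67 by −0.77 ± 0.31 and Cks2 by −0.44 ± 0.17 (SE). Of the 23 cyclin and mitosis members 22 were lower, 12 with unadjusted p under 0.05, and of the 14 replication and nucleotide members 10 were lower, 1 (Cdc6, −0.30) with such a p. Plk1 and Nusap1 had all 14-day arrays below all 5-day arrays, where 0.346% of genes did, and Mcm4 had them above, where 0.61% did. This is the test of whether the 2 times differ, and it passed for 0 members (limma adjusted p = 0.999 for each) and 0 of 18193 genes (0%), with 444 genes (2.44%) at unadjusted p under 0.05. The count of 13 was 8 without both HFD arrays numbered 4, where 7.65% of genes were lower with such a p. It was also 8 without 5-day array 1, 5-day array 4 or 14-day array 2, where 0.583%, 1.7% and 1.47% of genes were, and lay between 8 and 14 over all single arrays left out.

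Several lists of cell type and tissue markers, though not all, were lower at 14 than at 5 days, as most members were. Macrophage markers were lower at 14 than at 5 days in 8 of 8 (median −0.47, 3 with unadjusted p under 0.05), progenitor and fibroblast markers in 7 of 7 (−0.31, 1 with such a p), endothelial markers in 6 of 6 (−0.29, 0) and skeletal muscle markers in 6 of 6 (−1.49, 0). Epididymis markers were lower in 6 of 7 (−0.39) and testis germ cell markers in 6 of 8 (−0.18), while mesothelium markers were lower in 2 of 7 (0.14). Liver markers were lower in 5 of 5 (−0.23) and erythroid markers in 2 of 3 (−0.11). Lymphocyte markers were lower in 1 of 6 (median 0.08), adipocyte markers in 3 of 7 (0.0085) and smooth muscle markers in 2 of 5 (0.03). Over all genes, 0.846% were lower with unadjusted p under 0.05. Means in 14-day arrays 1 to 4 were 11.21, 11.48, 11.62 and 10.28 for macrophage markers, with array 4 apart, 11.76, 11.83, 11.80 and 11.33 for progenitor and fibroblast markers, and 9.91, 10.71, 10.11 and 10.14 for endothelial markers. The part of these cells in the lower values of members at 14 days was not tested.

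The array carries 83 probe sets for the 37 members, 1 for 10 of them and up to 5 for the rest. At 5 days 55 of the 83 were higher in mean, 25 with unadjusted p under 0.05 and 2 lower with such a p, where 3.49% and 5.61% of 34945 probe sets were so, and limma called 0 of 34945. For some members the brightest probe set gave a smaller difference than the others. Rrm2 on its probe set 1434437_x_at stood at 6.96, 6.76, 6.67 and 6.95 in chow, 8.29, 8.18, 8.26 and 8.31 after 5 days and 7.18, 7.02, 7.26 and 8.63 after 14 days, a 5-day difference of 1.42 ± 0.28 (SE), and on 1448226_at of 1.10 ± 0.29. Its 5-day arrays were all above chow, array 4 included, unlike Rrm1, and 14-day array 4 was the highest of all.

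Top2a on 1454694_a_at stood at 7.42, 7.51, 7.63 and 7.55 in chow, 8.11, 8.11, 7.61 and 8.56 after 5 days and 7.40, 7.45, 7.85 and 7.40 after 14 days, with 5-day array 4 the highest and 5-day array 3 at the chow level, as in Mki67. That was 0.56 ± 0.17 (SE), against 0.12 on the brightest probe set. Ccna2 on 1417911_at stood at 8.15, 8.09, 7.91 and 7.97 in chow, 8.44, 8.35, 8.23 and 8.30 after 5 days and 7.93, 7.98, 8.10 and 7.90 after 14 days. Its 5-day arrays lay above all others, by 0.30 ± 0.07 from chow (SE; limma unadjusted p = 0.00169, adjusted p = 0.328). Kif11 on 1435306_a_at differed by 0.25 ± 0.11, with arrays that overlapped chow, and Aurkb, an Aurora kinase of the chromosomal passenger complex, on 1451246_s_at by 0.28 ± 0.11, with all 5-day arrays above chow. The other Cks2 probe set gave 0.97 ± 0.18, but there 14-day array 2 (7.61) lay within the chow range of 7.57 to 7.68. That of Prc1 gave 0.40 and that of Mcm4 −0.17 ± 0.07. Mcm2 on 1448777_at was higher at 5 days by 0.30 ± 0.17, with arrays that overlapped chow. For other members the further probe sets did not show the difference: Cdca3 gave −0.11 ± 0.10 and 0.01 on its others, Rrm1 −0.006 and −0.06, Aurka −0.02 and Nusap1 −0.005. At 14 days all arrays lay below chow for Cdt1 on 1424144_at. The difference was −0.32 ± 0.11 (SE, limma adjusted p = 0.65), against −0.06 on its brightest probe set. Which transcripts each probe set reads was not analysed here.

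**Figure D5:**
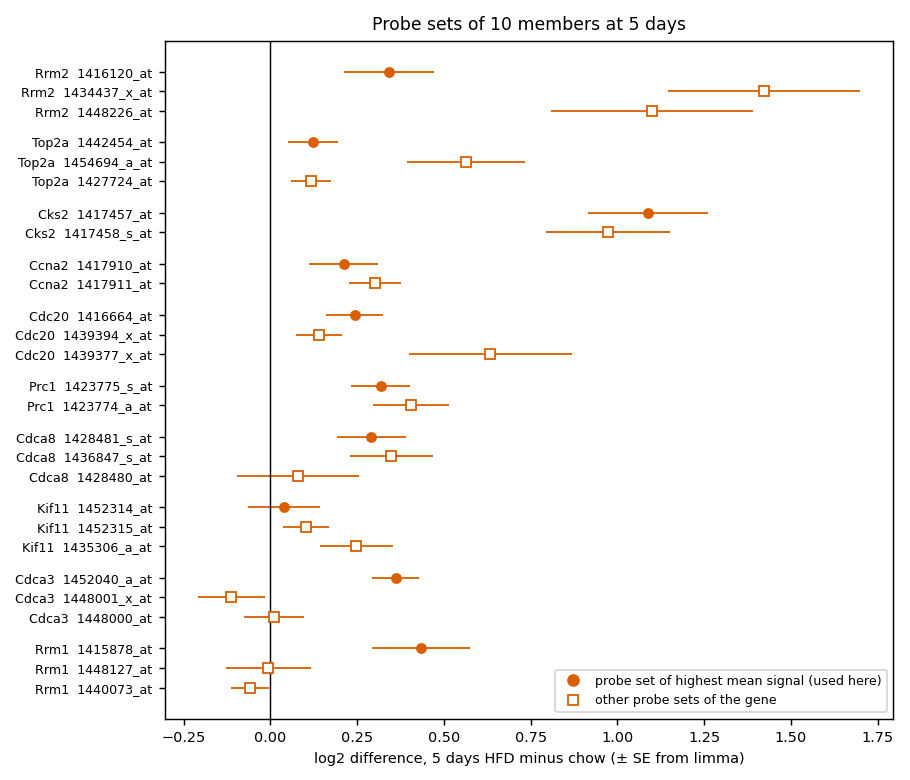
Log2 difference between 5 days of HFD and chow on each probe set of 10 members, with the SE from limma; filled circles are the probe sets of highest mean signal and open squares the others. The probe sets of Cks2 lie close together at 1.09 and 0.97, while those of Rrm2, Top2a, Cdca3 and Rrm1 spread apart.

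Further genes of the cycle, none of them members, were counted from 4 more lists. Like the members, these lists were chosen with earlier results of these data known and were read from the same arrays, so they are not independent of the members. Of 50 other mitotic genes 41 were higher at 5 days, with a median of 0.17. Of these 41, 18 had unadjusted p under 0.05, where 4.24% of all genes were higher with such a p. Only 1, Pttg1, was lower with such a p, where 5.39% of all genes were. Pbk, a mitotic kinase, had the smallest p of all 18193 genes; it stood at 7.08, 7.12, 7.12 and 7.23 in chow, 7.55, 7.70, 7.56 and 7.64 after 5 days and 7.17, 7.27, 7.42 and 7.32 after 14 days. All 5-day arrays lay above all others, by 0.48 ± 0.06 from chow (SE; limma adjusted p = 0.218), and without the low value of array 3 seen in Mki67. Nuf2, of the kinetochore, differed by 0.42 ± 0.11 and Cep55, which acts in the final separation of daughter cells, by 0.59 ± 0.16 (adjusted p = 0.391 for both). At 14 days 29 of these 50 were higher than in chow, with a median of 0.02. Unadjusted p was under 0.05 for 2, Pbk and Spc25, where 3.02% of all genes were higher with such a p. Against 5 days 43 were lower at 14 days, 9 with such a p, among them Pbk (−0.32), Nuf2 (−0.46) and the centromeric histone gene Cenpa (−0.38). Over all genes 0.846% were lower with such a p.

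Of 33 other replication genes (36 listed) 23 were higher at 5 days, with a median of 0.06. Unadjusted p was under 0.05 for 1 of these, where 4.24% of all genes were higher with such a p. It was Dbf4, the activator of the origin-firing kinase (0.32 ± 0.11, limma adjusted p = 0.419). Of 19 G1 cyclin, kinase and E2F genes 11 were higher and 8 lower, 0 with unadjusted p under 0.05; E2f1 and E2f3 differed by 0.22 and 0.20 and Myc by −0.19. Of 20 inhibitors and quiescence genes 11 were higher and 9 lower, and 2 were lower with such a p, where 5.39% of all genes were. These were Gas1, named for its expression in arrested cells (−0.29 ± 0.10, adjusted p = 0.409), and Rbl2, a retinoblastoma family member (−0.16 ± 0.06, adjusted p = 0.441). Gas1 was also lower at 14 days, by −0.24 (adjusted p = 0.67), and of the replication list Prim2 was higher there (0.15; adjusted p = 0.67). At 14 days the G1 list had 12 of 19 higher, the inhibitors 7 of 20 and the replication genes 22 of 33.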

How the data were processed

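RNA was labelled with biotin and hybridised to Affymetrix arrays, per the labels. The authors deposited 1 table of log2 values for 45098 probe sets, with the scale judged from its range; how probes were summarised and arrays normalised is not given in the sources used here, and nothing was renormalised. Arrays give no counts, so their number limits the precision. Probe sets were named from the platform annotation (34945 with 1 symbol, 932 with several, 9160 with none, 61 controls), and 34741 were matched to RefSeq GRCm38.p6 by Entrez ID, which changed 0 symbols. Each of 18193 genes took its probe set of highest mean, with no filter. A single limma 3.58.1 model (R 4.3.3; lmFit, eBayes with trend, two-sided) held all 3 groups, with Benjamini-Hochberg adjustment over all genes and calls at adjusted p under 0.05; the procedure was tested on simulated data. Members and lists were chosen with earlier results of these data known. Members with unadjusted p under 0.05 in any comparison (the 16 of smallest p) and Mki67, Top2a, Pcna, Cdk1 and Ccnd1 were given in every array. Up to 3 genes of smallest p of each further list were eligible to be named. Mcm4, Pttg1, Cdc6 and Ccna2, the last given in every array on another probe set, stand outside that rule. Alternatives were median centring, quantile normalisation, a 40th percentile filter, means of probe sets, each probe set alone, other variance models, array weights, only 2 groups, a replicate block, an adjusted p threshold of 0.1, marker covariates, both HFD arrays numbered 4 left out, and each array left out in turn. Counts of members at unadjusted p under these alternatives were added after seeing the data. Chance tests on lists were not made.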

Additional observations from a re-analysis of the deposited data

Results flagged for a closer look

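In 57 groups of 4 arrays (the 19 members given in every array), 3 held an array far from the others by Dixon's criterion at the 95% level, where chance gives about 1 in 20. Aurka stood at 7.13 in 5-day array 3, with the nearest array at 7.29. Rrm2 stood at 7.65 in 5-day array 4, with the nearest at 7.76. Nusap1 stood at 7.60 in chow array 1, with the nearest at 7.38.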

How the results depend on the processing

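Under median centring, quantile normalisation, a filter at the 40th percentile, means of probe sets, other variance models, a replicate block, the skeletal muscle covariate and a threshold of 0.1, limma called 0 genes in all 3 comparisons, as in the values reported. At 5 days against chow, genes and members called were 1845 and 13 with array weights, 126 and 1 with only the 2 groups compared, 1000 and 6 without both HFD arrays numbered 4, and 315 and 5 with the epididymis covariate; as single arrays were left out they ran from 0 to 90 and from 0 to 2. At 14 days against chow they were 1843 and 3 with array weights, and 1 gene was called without both arrays numbered 4; the count ran from 0 to 20 genes as arrays were left out (20 without 14-day array 2). At 14 against 5 days they were 1246 and 4 with array weights, 813 and 1 without both arrays numbered 4, and 20 genes with the epididymis covariate. Members with unadjusted p under 0.05, followed after seeing the data, numbered 7 higher at 14 days with array weights (2 as reported), where 19.1% of all genes were so. Those lower at 14 against 5 days numbered 8 with the filter, 8 with only 2 groups and 8 without both arrays numbered 4. In these settings 0.789%, 0.528% and 7.65% of all genes were so. With single arrays left out the members numbered from 8 to 14 (13 as reported). Those higher at 5 days (15 as reported) ran from 12 (without chow array 3) to 18 (without chow array 1 or 5-day array 3) with single arrays left out. In these settings 2.63%, 3.64% and 2.85% of all genes were so. Over the other settings they ran from 10 with the filter, which tested 26 members, to 19 with array weights. There 4.43% and 13.1% of all genes were so. The cause of these shifts was not tested.

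Members whose difference changed sign were mostly near 0. At 5 days single probe sets gave −0.020 for Aurka, −0.11 for Cdca3, −0.0053 for Nusap1, and −0.0063 and −0.059 for Rrm1. At 14 days Top2a stood at 0.050 with the mean of probe sets, 0.044 with array weights, 0.0065 without both arrays numbered 4, 0.022 with the epididymis covariate and 0.18 on 1 probe set. Ccnd1 stood at −0.66, −0.38, −0.25 and −0.002 with array weights, without both arrays, with the covariate and on another probe set. With array weights Cdc20 stood at −0.023 and Plk1 at 0.016; Plk1 stood at 0.010 without both arrays and 0.011 with the covariate, Birc5 at 0.0018 and 0.068, and Bub1 at 0.006 without both arrays. Single probe sets gave 0.022 for Bub1, −0.037 and −0.030 for Cdca3, and −0.082 and −0.012 for Rrm1. At 14 against 5 days Ccnd1 stood at −0.32 with array weights and −0.13 without both arrays, and Pcna there at 0.0043. Single probe sets gave 0.038 for Aurka, 0.015 for Bub1, 0.076 for Cdca3, 0.018 for Cdca8, 0.017 for Nusap1, 0.048 for Rrm1 and 0.059 for Top2a. With single arrays left out, the 14-day difference ran from −0.13 to 0.047 for Birc5, −0.0077 to 0.13 for Cdca8, −0.076 to 0.017 for Plk1, −0.055 to 0.11 for Nusap1, −0.088 to 0.006 for Bub1, −0.054 to 0.0065 for Top2a and −0.38 to 0.35 for Ccnd1, and at 14 against 5 days −0.079 to 0.013 for Pcna and −0.020 to 0.71 for Ccnd1. The median over members ran from 0.14 to 0.22, −0.013 to 0.066 and −0.17 to −0.11 in the 3 comparisons.

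With the replicate number as a block, limma called 0 genes. At 5 days 16 members were higher with unadjusted p under 0.05, where 3.45% of all genes were so. The mean of its group was subtracted from each gene in each array, and the remainders were correlated between arrays. Remainders of arrays of the same number correlated from −0.72 to 0.41. Among arrays of the other groups, 1 of 12 correlated best with its own number. The labels do not say whether the numbers pair samples. These correlations cannot decide it, since transcripts of other tissues differed between arrays of 1 group.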
